A study of Mus with 15 samples.

Results

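The neural basic helix-loop-helix (bHLH) genes examined here were Neurog1, Neurog2, Neurog3, Atoh1, Ptf1a, Olig1, Olig2, Olig3 and Bhlhe22. They are 9 of the 49943 genes, and of the 21887 protein-coding genes, that a RefSeq gene table for mouse (GRCm38.p6, whose coordinates match mm10) places on chromosomes 1 to 19, X and Y. They were chosen by name, with earlier results of these data known. For each gene, all H2Aub peaks that overlapped a window made of the gene body and 5 kb on each side were collected from 11 peak lists. H2Aub (H2AK119ub, histone H2A with a single ubiquitin on a lysine of its tail) had been profiled by ChIPmentation, in which the Tn5 transposase adds sequencing adapters to chromatin still held on the antibody beads.

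Each sample pooled 3 to 4 thalami, per the labels, from adult mice of 2 to 4 months. WT mice were the Maged1 loxP controls, and cKO mice had lost Maged1 in cells that express Cre from the Vglut2 promoter, which is active in glutamatergic neurons, so that glia and other cells of the same tissue kept the gene. All mice received saline for 3 days and then, for 5 days, either cocaine at 20 mg/kg by intraperitoneal injection or saline. The 4 groups were WT cocaine (3 libraries), WT saline (3 libraries), cKO cocaine (2 libraries) and cKO saline (3 libraries). The deposited lists hold no expression values, so neither the tissue label nor the deletion could be checked with marker genes. Maged1 itself carried a peak in 0 of 11 libraries, which bears on the mark and not on the deletion.

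H2Aub is placed by Polycomb repressive complex 1 and is best known from silent genes of developmental regulators. Proneural bHLH factors such as the neurogenins and Atoh1 pair with E-proteins, bind E-box DNA and switch on neuronal programs in progenitors, and they are mostly off in the adult brain. The Olig factors belong to the same superfamily. Olig1 and Olig2 remain active in adult oligodendrocytes and their precursors, whereas Olig3 acts in dorsal progenitors of the embryo, the developing thalamus included.

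The number of peaks per list ran from 7271 to 80713, and the length under peaks from 4.24 to 27.6 Mb. The study gives a lower bound on sequencing depth and no read number for single lists, so deeper sequencing and more marked chromatin cannot be told apart as sources of a longer list. In a bulk tissue, fewer cells with the mark and less mark per cell cannot be told apart either. In each cKO group the library numbered 1 stood apart, with a very long list and with fold enrichments over input of 4.14 to 10.5 at the strongest peak of each of the 9 genes, compared with 3.20 to 5.03 in the other 9 libraries. Without both, the mean percent of the window covered changed by −1.57 to 2.70 points over the 9 genes, and the comparisons of cKO groups are also given without them.

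All 9 genes carried H2Aub. A peak overlapped the window of each gene in 11 of 11 libraries, whereas 6.76% of protein-coding genes had a peak in all 11, and 21.2% had one in at least 6. The coverage differed widely between the genes. Olig2, the central regulator of the oligodendrocyte lineage and of motor neuron progenitors, had 72.8 ± 13.8% of its window under peaks (mean ± SD, n = 11), and Neurog2, a proneural factor of glutamatergic neurons, had 66.0 ± 11.4%. Olig3 (47.0 ± 20.1%), Neurog3, the endocrine progenitor factor of the pancreas (45.7 ± 9.13%), Atoh1, the factor of cerebellar granule cells and inner ear hair cells (44.4 ± 17.0%), and Ptf1a, which specifies pancreatic acinar cells and inhibitory neurons of the cerebellum (43.1 ± 13.2%), came next, with like means (SD, n = 11 for each). Neurog1, a proneural factor of sensory neurons, had 33.9 ± 14.3%, Bhlhe22, a repressor in differentiating neurons, 20.4 ± 9.70%, and Olig1, which promotes oligodendrocyte maturation, 13.2 ± 8.72% (SD, n = 11 for each).

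**Figure D1:**
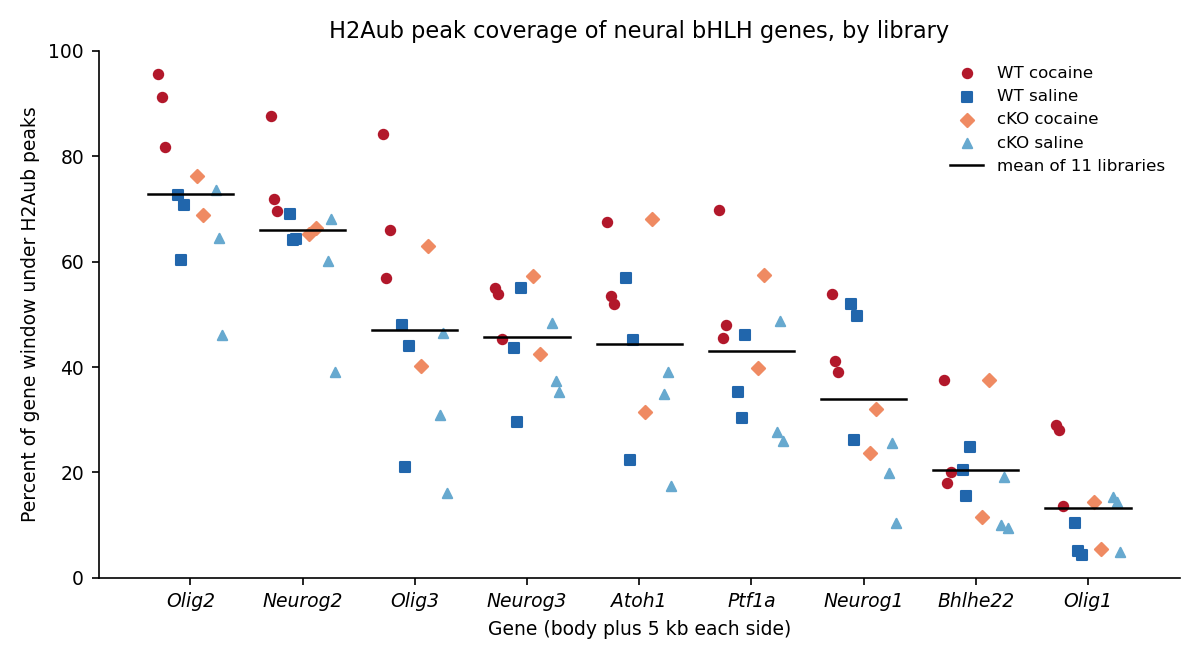
Percent of each gene window (gene body plus 5 kb on each side) under H2Aub peaks, with 1 point per library, colours and symbols for the 4 groups and a black line for the mean of 11 libraries. Olig2 has the highest mean (72.8%) and Olig1 the lowest (13.2%).

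Not every step in this order was larger than the spread between libraries. Olig2 exceeded Neurog2 in 9 of 11 libraries, by 6.87 ± 7.05 percentage points, and Neurog2 exceeded Olig3 in 11 of 11, by 18.96 ± 12.2 points (mean ± SD of the differences within libraries, n = 11 for both). Olig3, Neurog3, Atoh1 and Ptf1a were not separated, since each neighbouring pair differed by 1.28 to 1.30 points and kept its order in only 5 or 6 of 11 libraries. Neurog1 lay below Ptf1a in 9, Bhlhe22 below Neurog1 in 10, and Olig1 below Bhlhe22 in 8 of 11 libraries. Among the 21887 protein-coding genes ranked by mean percent covered, Olig2 was number 72 and Neurog2 number 94, the next 5 genes lay between numbers 155 and 207, Bhlhe22 was number 334 and Olig1 number 500. A peak of a given width covers a larger share of a shorter window, so the genes were also ranked against short genes only. In the 5034 protein-coding genes with a body of at most 5 kb, the 9 genes ranked between 43 and 208.

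The question for the Olig genes was whether the pair that is active in adult glia was less covered than the 7 other genes. As a pair it was not. The mean of Olig1 and Olig2 was 43.0 ± 10.8% and that of the other 7 genes 42.9 ± 11.9% (SD, n = 11 for both), a difference of 0.0674 ± 8.18 points that was negative in 6 of 11 libraries. By group the difference was −3.87 ± 6.23 points in WT saline, 2.41 ± 7.41 in WT cocaine and 4.52 ± 6.31 in cKO saline (SD, n = 3 for each). In cKO cocaine it was −4.21 ± 15.6 points (SD, n = 2), so the sign differed between groups. Over all groups without the cKO libraries numbered 1, the difference was −1.93 points. The pair itself was split. Olig2 was the most covered of the 9 genes in 9 libraries, Olig1 the least covered in 8, and Olig2 exceeded Olig1 in 11 of 11 libraries by 59.7 ± 8.11 points (SD, n = 11). In WT saline libraries, the controls for genotype and drug, Olig2 had 72.7, 60.3 and 70.7% of its window under peaks, while Olig1 had 10.4, 5.14 and 4.25%. The gap was thus present in every WT saline library.

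The low value of Olig1 came mainly from its flanks. Within the gene body, Olig1 (chr16:91269769-91271939) was covered over 51.9 ± 26.7% and Olig2 (chr16:91225550-91228677) over 85.0 ± 12.6% (SD, n = 11). On the lower-coordinate side the 5 kb flank was covered over 5.82% at Olig1 and 89.7% at Olig2, and on the other side over 3.67% and 48.3% (means of 11 libraries). With gene bodies alone, Olig1 was therefore no longer last, since Olig3 (47.0%) and Bhlhe22 (20.7%) were lower. The genes lie 41091 bp apart on chromosome 16, and the 31091 bp between their windows were covered over 1.65 ± 2.13% (SD, n = 11), so the mark formed separate blocks. At a stricter peak threshold (q at most 0.01) Olig1 kept a peak in 5 of 11 libraries, while Olig2 kept one in 11 of 11.

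Position along the windows was compared next. The table used gives no strand and no exons, so positions are given against the gene body and its ends and not against the transcription start. The stretch of Olig2 covered in all 11 libraries that was longest, 1192 bp at chr16:91222583-91223774, lay in the flank below the lower-coordinate end, and shared stretches at Olig2 came to 1788 bp in total, of which 488 bp were in the body. Neurog2 (chr3:127632733-127635636) had the most shared sequence, 2514 bp, with a longest stretch of 753 bp at chr3:127631286-127632038 in the flank and only 139 bp in the body. In both genes the lower-coordinate flank was covered over 89.7% and 89.8%, and the other flank over 48.3% and 43.1%. Olig2 and Neurog2 also held no base that was free of peaks in every library.

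At Neurog1, Neurog3 and Atoh1 the shared part was in the gene. Neurog1 (chr13:56250478-56252180) had a single shared stretch of 806 bp, all inside the body. Neurog3 (chr10:62133090-62134763) had 1115 bp, of which 873 bp were in the body, and its body was the most covered of the 9 genes (89.4 ± 13.5%, SD, n = 11). Atoh1 (chr6:64729125-64731245) had 317 bp, all inside the body, and 30.2% of its window was never covered. The body of Atoh1 was covered over 77.1 ± 15.5% and that of Neurog1 over 72.1 ± 12.7% (SD, n = 11).

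Ptf1a (chr2:19445663-19447501) had 1130 shared bp, of which 389 bp were in the body and the rest in the flank. Olig1, Olig3 and Bhlhe22 had almost no sequence common to all libraries. At Olig1 a single base was covered in all 11 libraries. Olig3 (chr10:19356539-19358604) had none, and no base of it was covered in more than 10 libraries, although 50.6% of its window was covered in at least 6. Bhlhe22 (chr3:18054325-18057514) reached at most 8 libraries, with 40.6% of the lower-coordinate flank covered on average and 0% of the other flank. The Ptf1a window also holds Ptf1aos and 1810010K12Rik, and the windows of Olig2, Neurog2 and Atoh1 each hold a predicted gene (Gm52261, Gm40147 and Gm35851), so peaks there cannot be assigned to a single gene.

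**Figure D2:**
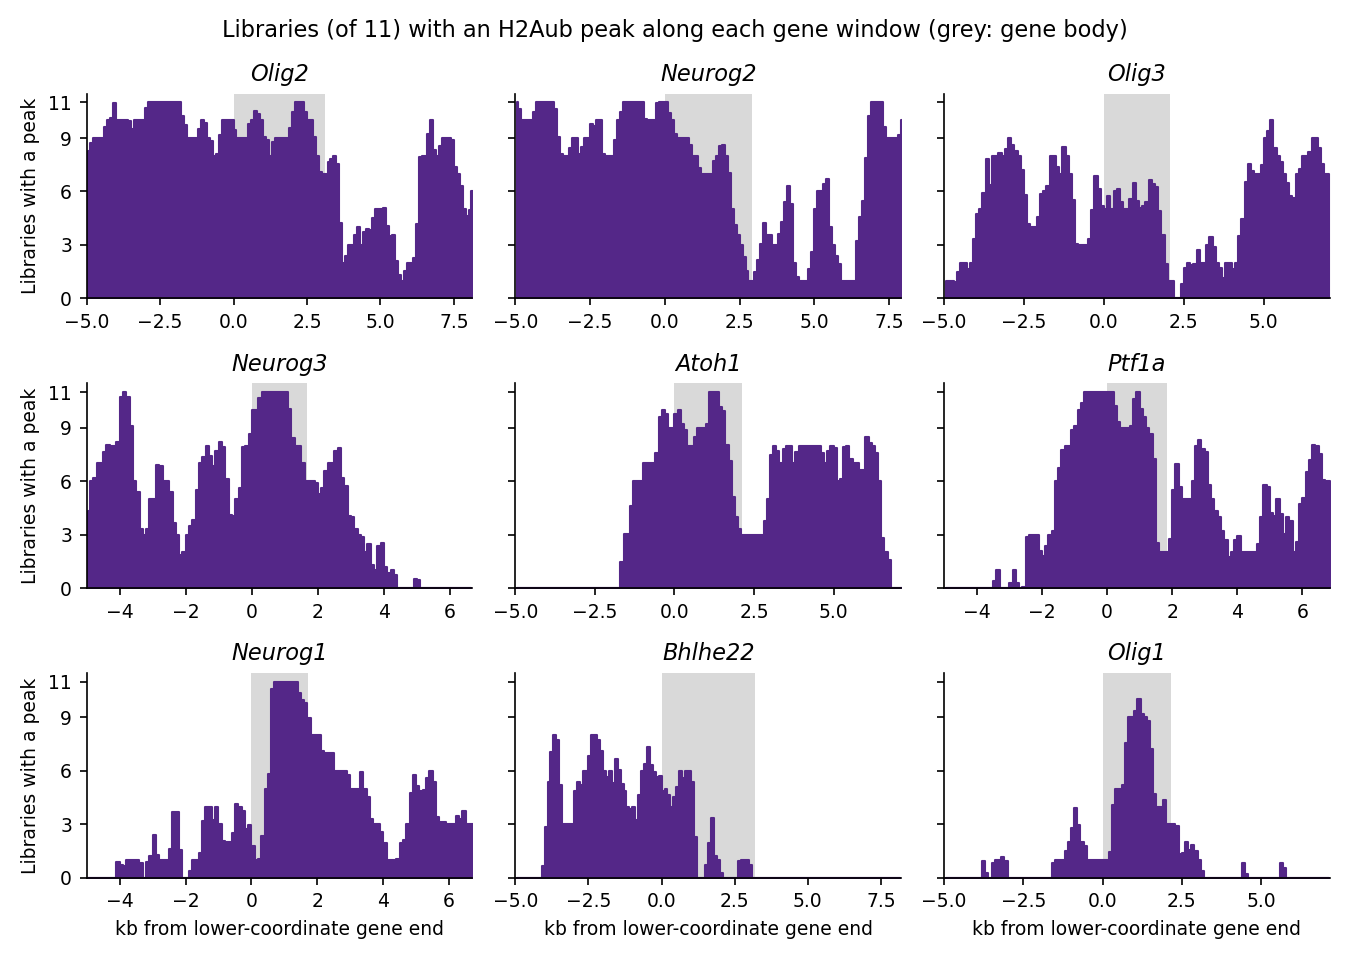
Number of libraries (of 11) with an H2Aub peak along each gene window, as the mean over bins of 100 bp, against the distance in kb from the lower-coordinate gene end, with the gene body in grey. Olig2 and Neurog2 are covered in most libraries over the lower-coordinate flank and much of the body, Olig1 has a single summit in its body, and Bhlhe22 has no peak on its higher-coordinate side.

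Beyond the windows the mark dropped. From 5 to 50 kb on each side, peaks covered between 0.0485% (Bhlhe22) and 12.7% (Olig1) of the sequence on average. For 8 genes the window was more covered than this outer sequence in 11 of 11 libraries. Olig1 was the exception, with 4 of 11 libraries, and its outer sequence contains the Olig2 block. Neurog1 had 11.3% of its outer sequence under peaks and Ptf1a 6.02%, the next highest values.

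The widest peak that touched a window was 12316 bp (Olig2, WT cocaine replicate 1), measured over its whole width. Olig2 had a peak of over 5 kb in 7 of 11 libraries and Neurog2 in 6, compared with 2 for Atoh1, 1 each for Olig3, Ptf1a and Neurog1, and 0 for Neurog3, Bhlhe22 and Olig1. Fold enrichment was modest throughout. The strongest peak per gene and library was 3.20 to 10.5 times over input, with −log10 q between 1.42 and 16.3, and the strongest Olig2 peak reached 3.98 to 5.87 times, within the range of the other genes.

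The first comparison asked whether cocaine changed the covered length in WT mice. The mean was higher after cocaine for 9 of 9 genes. The ratio of means ran from 1.05 (Neurog1) to 3.57 (Olig1), with a median of 1.32. For 4 of the 9 genes, Olig1, Olig2, Olig3 and Neurog2, the libraries of the groups did not overlap. Over the 15123 genes with a peak in at least 1 WT library, 13.1% were higher without overlap, and over the 3222 genes with a peak in every WT library, as the 9 genes had, 29.5% were. Against the latter share, 4 of 9 is little more than the background, and windows of neighbouring genes overlap, so genes are not independent. The median ratio of those 3222 genes was 1.63, above that of the 9 bHLH genes. With 3 libraries against 3, the exact permutation test (two-sided) cannot go below p = 0.10, so no gene in this comparison could pass 0.05.

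Olig2 had 12539, 11968 and 10724 bp under peaks in WT cocaine replicates 1, 2 and 3, and 9540, 7912 and 9282 bp in WT saline replicates 1, 2 and 3. Every cocaine library was above every saline library, by 2832 ± 736 bp on average (difference ± SE, exact permutation p = 0.10, adjusted p = 0.744 over 15123 genes). The whole body of Olig2 was covered in each WT cocaine library (100% in 3 of 3), compared with 86.6, 90.4 and 72.4% in WT saline. The widest Olig2 peak measured 12316, 11223 and 9674 bp after cocaine and 4909, 3982 and 6061 bp after saline, so that in cocaine libraries a single called peak ran over most of the window.

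Olig1 had 3540, 3405 and 1657 bp after cocaine and 1270, 625 and 517 bp after saline. The lowest cocaine library lay just above the highest saline library, and the difference was 2063 ± 650 bp (SE, exact permutation p = 0.10, adjusted p = 0.744). Olig3 had 10170, 6854 and 7969 bp after cocaine and 5790, 2542 and 5318 bp after saline, a difference of 3781 ± 1406 bp (SE, exact permutation p = 0.10, adjusted p = 0.744). Of the 9 genes it had the largest difference in bp. With peaks of q at most 0.01, the groups overlapped for both genes, and the difference was 756 bp for Olig1 (exact permutation p = 1) and 3479 bp for Olig3 (exact permutation p = 0.20). At that threshold 4 of the 9 genes were separate and higher, Neurog2, Neurog3, Ptf1a and Olig2, against 33.6% of all genes with a peak in every WT library. With gene bodies plus 2 kb, Olig1 and Olig3 were separate together with those 4, against 29.6% of all such genes.

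Neurog2 had 11298, 9285 and 8977 bp after cocaine and 8916, 8268 and 8287 bp after saline. The closest libraries of the groups were only 61 bp apart, and the difference was 1363 ± 758 bp (SE, exact permutation p = 0.10, adjusted p = 0.744). Without WT cocaine replicate 1, the highest Neurog2 library, it was 641 bp. For Neurog1, Neurog3, Atoh1, Ptf1a and Bhlhe22 the groups overlapped. Their differences of means ran from 243 ± 1105 bp (Neurog1) to 2028 ± 1066 bp (Ptf1a) (SE), and WT saline replicate 2, the shortest WT list, was the lowest WT library for each of these 5 genes.

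**Figure D3:**
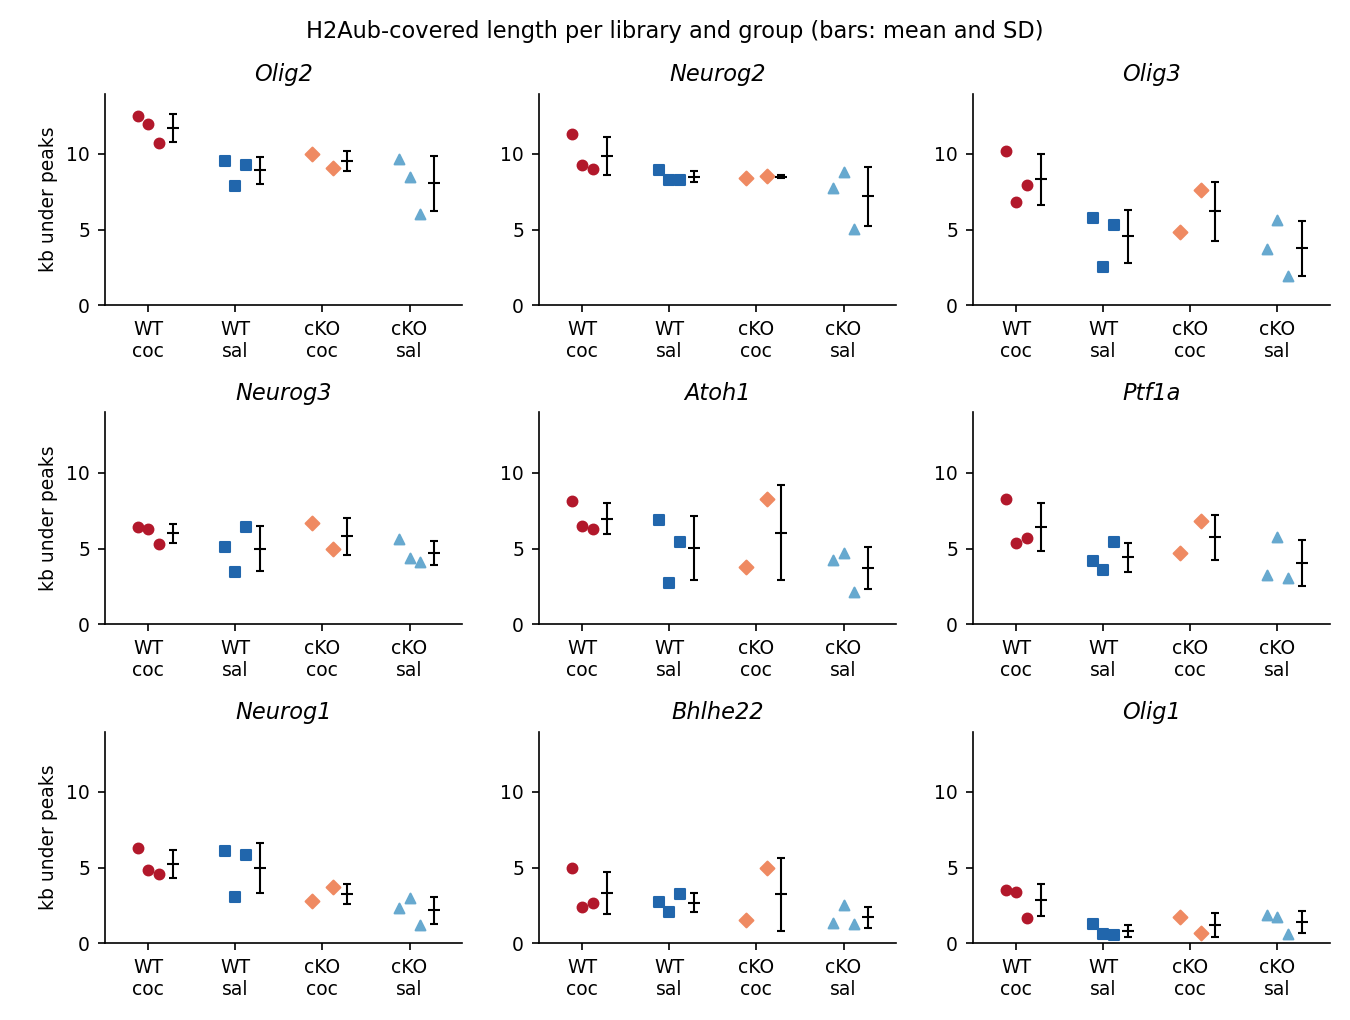
Length under H2Aub peaks (kb) in each gene window by group, with 1 point per library and bars for the mean and SD beside the points (WT cocaine, WT saline and cKO saline, 3 libraries each, and cKO cocaine, 2 libraries). For Olig2, Olig1, Olig3 and Neurog2 all WT cocaine points lie above all WT saline points.

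The length of the whole list moved with this comparison. Peaks covered 14.2 ± 3.50 Mb of the genome in WT cocaine and 8.35 ± 2.77 Mb in WT saline (SD, n = 3 for both). When each library's covered length was divided by the total of its list, 7 of 9 genes had a lower mean after cocaine, Olig2 changed by −3505 bp and Neurog2 by −4810 bp, Olig1 stayed above without overlap (1282 bp, exact permutation p = 0.10), and Neurog1 was lower without overlap. After this scaling 9.06% of all genes with a peak in every WT library were separate and higher and 8.5% separate and lower. With the same number of peaks taken from each list, 8 of 9 genes stayed higher and only Olig2 did so without overlap (2992 bp, exact permutation p = 0.10), while 28.6% of all such genes were separate and higher. The part of list length in the WT difference was not tested.

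In cKO mice the same comparison gave no gene with separate groups. The mean was higher after cocaine for 8 of 9 genes, with ratios up to 1.90 (Bhlhe22), and lower for Olig1 (0.859). The median ratio of the 9 genes was 1.43, compared with 1.35 for all genes with a peak in every cKO library. The groups overlapped for all 9 genes, while 15.1% of the 2860 genes with a peak in every cKO library were higher without overlap. Exact permutation p-values lay between 0.30 and 0.70, with 0.10 the smallest possible. Olig2 had 10004 and 9041 bp in cKO cocaine replicates 1 and 2, and 9650, 8453 and 6046 bp in cKO saline replicates 1, 2 and 3. Olig1 had 1748 and 661 bp after cocaine and 1862, 1753 and 591 bp after saline, so that both cocaine values lay within the range of the saline values.

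This count changed when libraries were left out, and so did the share of all genes with a peak in every remaining library, which is given beside each count. Without cKO cocaine replicate 1, with 1 cocaine library left, 5 genes were separate and higher after cocaine (Neurog1, Atoh1, Ptf1a, Olig3 and Bhlhe22), against 31.9% of all such genes. Without both libraries numbered 1 there were 7, against 72.4%, and without cKO saline replicate 2 there were 5, against 22%. Without cKO cocaine replicate 2 (39.6% of all genes) or cKO saline replicate 1 (57.3%), Neurog3 and Olig2 were separate. Without cKO saline replicate 3, the shortest of all lists, Olig1 was lower after cocaine, as were 4.66% of all genes. With peaks of q at most 0.01 and all libraries, Neurog1 was separate and higher after cocaine, as were 16.1% of all genes with a peak in every cKO library. Bhlhe22 was also separate and higher but is outside that share, since it had no peak in 2 of the cKO saline libraries. With gene bodies plus 2 kb, Neurog1 and Neurog2 were (14.9%). Since groups of 1 or 2 libraries are often separate, nothing about the 9 genes is read from these counts. The 2 cKO cocaine libraries differed most at Atoh1 (3814 and 8263 bp) and Bhlhe22 (1515 and 4947 bp).

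Whether the response to cocaine differed between the genotypes was tested as a difference of differences, with treatment permuted within genotype. For Olig1 the covered length changed by 2063 bp in WT and by −197.5 bp in cKO, a difference of 2261 bp (exact permutation p = 0.065, smallest possible 0.005, adjusted p = 1 over 28090 genes). Without the cKO libraries numbered 1 it was 2574 bp (exact permutation p = 0.0667). For the other 8 genes the exact permutation p lay between 0.515 and 0.95. An unadjusted p below 0.05 was reached by 0 of the 9 genes and by 0.217% of all genes tested (61 genes), none of which passed after adjustment. A difference between genotypes in the effect of cocaine was therefore not detected at these genes.

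At baseline, cKO saline was compared with WT saline. Means were lower in cKO for 8 of 9 genes and higher for Olig1 (ratio 1.74). The median ratio of the 9 genes was 0.848, compared with 1.00 for all genes with a peak in every saline library. The groups were separate for 1 gene, Neurog1, which was lower, while 3.51% of the 2335 genes with a peak in every saline library were lower without overlap and 1.07% higher. Neurog1 had 2321, 2984 and 1224 bp in cKO saline and 6078, 3061 and 5807 bp in WT saline, a difference of −2806 ± 1092 bp (SE, exact permutation p = 0.10, adjusted p = 1). The highest cKO value lay only 77 bp below the lowest WT value. With peaks of q at most 0.01 the groups overlapped (−1735 bp, exact permutation p = 0.20), and no gene was left with separate groups. The difference was in the flanks, since within the body of Neurog1 it was −114 bp (exact permutation p = 0.40). Without cKO saline replicate 1, Neurog1 was still separate (−2878 bp, exact permutation p = 0.20). Without WT saline replicate 2 the groups were separate for Neurog1, Atoh1 and Bhlhe22 (13.4% of all genes with a peak in every remaining library were then lower), and without cKO saline replicate 2 for Neurog1, Neurog2, Ptf1a and Bhlhe22 (again 13.4%). Without cKO saline replicate 3, Olig1 was also separate and higher in cKO, as were 11.3% of all genes.

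After cocaine, means were lower in cKO than in WT for 9 of 9 genes, with ratios from 0.420 (Olig1) to 0.972 (Bhlhe22). The median ratio of the 9 genes was 0.862, compared with 0.941 for all genes with a peak in every cocaine library. The groups did not overlap for 3 genes, Neurog1, Neurog2 and Olig2, all lower in cKO. Over the 4776 genes with a peak in every cocaine library, 10.7% were lower without overlap and 5.44% higher, so 3 of 9 exceeded the background share but is a small count. Neurog1 had 2779 and 3739 bp in cKO cocaine and 6298, 4810 and 4567 bp in WT cocaine (−1966 ± 723 bp, SE, exact permutation p = 0.10, adjusted p = 0.678). This difference, too, was in the flanks, and within the body the mean was 314 bp higher in cKO (exact permutation p = 0.30).

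Neurog2 had 8422 and 8568 bp in cKO cocaine, below the 11298, 9285 and 8977 bp of WT cocaine (−1358 ± 731 bp, SE, exact permutation p = 0.30, adjusted p = 0.678), and without WT cocaine replicate 1 the difference was −636 bp. Olig2, with 10004 and 9041 bp in cKO against 12539, 11968 and 10724 bp in WT, differed by −2221 ± 720 bp (SE, exact permutation p = 0.20, adjusted p = 0.678). With groups of unequal size, this test can give a p above 0.10 even where the groups do not overlap. Without cKO cocaine replicate 1, with 1 cKO library left, 5 genes were lower without overlap, Neurog1 (−1486 bp), Neurog2 (−1285 bp) and Olig2 (−2703 bp) among them, and Atoh1 was higher, while 39.6% of all genes with a peak in every remaining library were lower and 10.5% higher. Without cKO cocaine replicate 2, again with 1 left, 7 were lower and Neurog3 was higher, while 22% of all genes were lower and 36.6% higher. With the same number of peaks from each list, 4 genes were lower without overlap (Neurog1, Neurog2, Neurog3 and Olig2), against 10.1% of all genes with a peak in at least 1 of the 5 libraries, and the median ratio of the 9 genes was 0.417. At this setting Olig2 kept a peak in 9 of 11 libraries, Neurog1, Neurog2 and Neurog3 in 10 each, and Olig1 in 8. A library without a peak enters these means as 0 bp. Scaled to list length, Olig1 alone was lower without overlap, against 14.5% of all genes with a peak in every library. This comparison and the baseline comparison use other libraries, but each shares its WT or cKO group with a comparison of treatments.

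Related gene lists put these values in context. Of 12 other neural bHLH genes, 9 had a peak in at least 6 libraries and 6 in all 11, with a median of 12.5% of the window covered, compared with 44.4% for the 9 genes and 0.0897% for all protein-coding genes. Neurod2, a factor of cortical projection neurons (62.6 ± 11.3%), Atoh8 (57.2 ± 19.02%) and Tal1, a regulator of blood and midbrain inhibitory neurons (42.1 ± 9.47%), had the most (SD, n = 11 for each). The 3 E-protein partners, which are expressed in many cell types, had a peak in at least 6 libraries in 0 of 3 cases. Their windows are long (34.4 to 355 kb, compared with 11.7 to 13.2 kb for the 9 genes), which lowers the percent covered but not the chance of a peak.

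Of 10 inhibitory HLH genes, 9 had a peak in at least 6 libraries and 3 in all 11. The latter were the Notch targets Hes1 (54.3 ± 14.1%) and Hes5 (23.8 ± 9.56%), and Id3 (15.0 ± 7.53%), whose product binds E-proteins without contacting DNA (SD, n = 11 for each). Of 7 genes active in oligodendrocytes, 2 had a peak in at least 6 libraries, Sox10 (5.08 ± 4.52%) and Myrf (0.836 ± 1.12%), and 0 reached the 13.2% of Olig1 (SD, n = 11). Their windows are longer (19.6 to 42.5 kb), which lowers the percent, but in length under peaks Sox10, the highest of them, had 995 bp on average, compared with 1603 bp for Olig1 and 9560 bp for Olig2. Of 7 thalamic neuron genes, 5 had a peak in at least 6 libraries, led by Gbx2 (68.4 ± 12.7%), a homeobox factor of developing thalamic neurons, with Lef1 (3.85 ± 1.54%) and Slc17a6, which encodes Vglut2 (1.62 ± 1.14%), below it (SD, n = 11 for each). Windows in this list run from 13.2 to 745 kb, and in length under peaks Lef1 (4782 bp on average) was closer to Gbx2 (9045 bp).

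**Figure D4:**
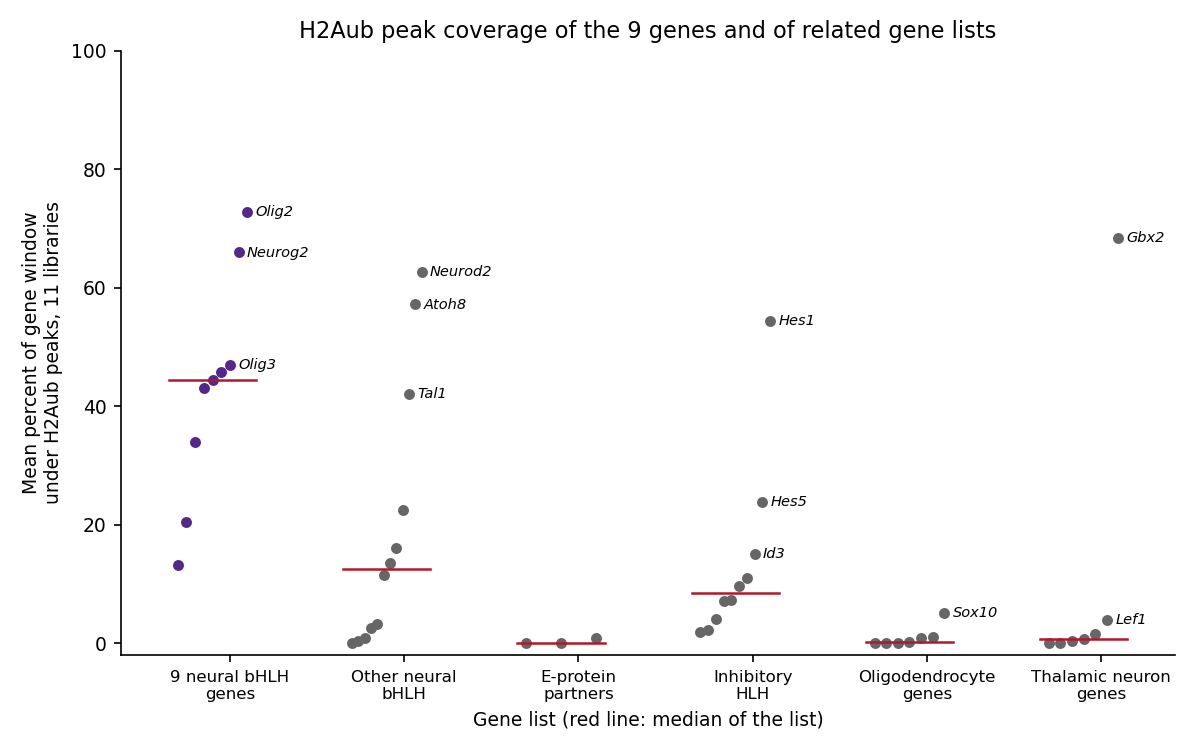
Mean percent of the gene window under H2Aub peaks over 11 libraries, with 1 point per gene and a red line for the median of each list. The 9 bHLH genes have a median of 44.4%, the other neural bHLH genes 12.5%, and the oligodendrocyte list stays below the 13.2% of Olig1.

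The coding genes whose percent covered was most like that of Olig2 across the 11 libraries were Vax1, Pitx1 and Nkx2-1, all homeobox factors. Their mean absolute differences from Olig2 were 6.0, 7.12 and 7.36 points over 11 libraries, and their mean coverage was 70.4, 72.3 and 75.6%.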

How the data were processed

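The authors aligned the reads to mm10 using Bowtie2 version 2.3.4.1. Broad peaks were then called by them against total input using MACS2 version 2.1.1.20160309.3, with 1 list for each H2Aub library. The 4 input libraries were not analysed here. The deposited lists give peak positions, fold enrichment over input as a linear ratio, the −log10 p and −log10 q of each peak, and a whole-number score derived from q. The highest q was 0.0997, and all peaks were kept. Overlapping peaks were merged within a library, and the covered length of each gene window was computed in Python (version 3.11.15, numpy 2.4.6, pandas 2.3.3).

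For every gene, groups of libraries were compared by a two-sided exact permutation test, with Benjamini-Hochberg adjustment. Groups were called separate where no library overlapped. The steps were tested on simulated data. The study describes the libraries of a group as independent biological replicates from pooled thalami. Every one of the 9 genes was described, and a difference was printed with its test for each gene whose groups did not overlap. From each related list up to 3 genes were named, those with a peak in the most libraries, ties being broken by mean coverage. The 9 genes and all lists were chosen with earlier results of these data known. Alternatives were q at most 0.05 or 0.01, equal peak numbers, scaling to list length, gene bodies with no flank or 2 kb flanks, an overlap of at least 100 bp, libraries left out, and a replicate block. Promoter windows and sequences were not used here, because the gene table gives no strand and no sequence.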

Additional observations from a re-analysis of the deposited data

How the results depend on the processing

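Over all alternatives, the difference of Olig1 and Olig2 from the other 7 genes stayed between −2.42 and 4.87 points (with single libraries left out, −1.05 to 1.60), so it had no steady sign, while Olig2 exceeded Olig1 by 33.0 points (gene bodies only) to 75.0 points. Peaks in at least 6 libraries were found for 9 genes in all settings except q at most 0.01 (8 genes, without Olig1). The mean difference over the 9 genes between WT cocaine and WT saline was 14.4 points. It was −13.2 points after scaling to list length and 4.60 points without WT cocaine replicate 1 and WT saline replicate 2 together, a choice made after seeing the data. Scaling also reversed Neurog2 (−4810 bp) and Olig2 (−3505 bp). The mean difference between cKO cocaine and cKO saline was 11.6 points, but −0.285 points with equal peak numbers and −10.3 points after scaling. That between cKO and WT after cocaine was −10.1 points, and −27.8 points with equal peak numbers, which also raised the difference of the cocaine effects from 2.79 to 13.1 points. With equal peak numbers none of the 9 genes kept a peak in every library, and a library without a peak counts as 0 bp. Neurog1 after cocaine was reversed with the gene body only (314 bp). The cause of these changes was not tested. With single libraries left out, these means ran from 9.47 to 17.5 (WT treatments), 6.51 to 16.1 (cKO treatments), −12.2 to −2.28 (genotypes after saline), −14.7 to −5.24 (genotypes after cocaine) and −2.11 to 7.87 points (difference of the cocaine effects). Without the cKO libraries numbered 1 the last was −3.09 points. The other means were then 17.5 points for cKO treatments, −8.72 for genotypes after saline and −5.63 for genotypes after cocaine, with 1 cKO cocaine library left.

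Same-numbered WT cocaine and WT saline libraries had correlations of 0.343, 0.171 and −0.167 between their deviations, so not every pair was above 0.1 and these samples are treated as sharing only a number. The 2 same-numbered pairs of cKO cocaine and cKO saline had 0.563 and 0.646. With only 2 cKO cocaine libraries, their deviations from the group mean mirror each other. The 2 values are therefore not separate and cannot settle whether these samples are paired. With the replicate block, only same-numbered libraries were compared. A mean of paired differences equals the difference of the means of the same libraries. The block thus could not change the 14.4 points in WT or the −7.35 points for genotypes after saline. The other means were 6.51 points in cKO, −13.3 for genotypes after cocaine and 7.87 for the difference of the cocaine effects. They moved only because cKO saline replicate 3 or WT cocaine replicate 3 had no partner and was left out. Exact sign-flip tests of 3 pairs cannot go below p = 0.25. The promoter-window alternative was not run because the gene table gives no strand.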
